A study of Drosophila melanogaster with 2 samples.

Results

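The 8 Hox genes of Drosophila melanogaster, lab, pb, Dfd, Scr, Antp, Ubx, abd-A and Abd-B, were examined for binding of the transcription factor Usf in whole embryos. They were taken by name from the 3421 protein-coding genes annotated on chromosome arm 3R, and each was studied over its whole length with 20 kb to either side. Lengths, coordinates and features are those of the dm6 build. The windows overlap in places and merge into 6 stretches of 627.4 kb, of which 361.8 kb belong to the Antennapedia cluster (lab to Antp) and 265.7 kb to the bithorax cluster (Ubx to Abd-B).

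The study had 1 group of 2 biological replicates, numbered 3 and 4: embryos of both sexes, 0 to 16 h old, from a stable transgenic line in which Usf carries GFP at its C terminus, with an antibody to GFP used for the pulldown. Chromatin was sonicated to pieces of 200 to 800 bp. A collection of whole embryos mixes all tissues and many stages, so a peak does not say in which cells Usf-GFP lay there, and peak lists hold no expression values against which stage or tissue could be checked. No control library was analysed here, and both replicates had been called against the same control alignment. Relaxed lists came with 28459 peaks in replicate 3, 29246 in replicate 4 and 21315 from both libraries' reads together (the pooled list), and 2767 peaks passed the irreproducible discovery rate (IDR), a filter on how well ranks recur between replicates. A relaxed list holds background as well as peaks. Signal is the authors' value for each peak, of unstated scaling, and rank 1 is the highest signal of a list.

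Hox genes encode homeodomain transcription factors that give the segments their identity along the axis from head to tail, and in flies they lie in the Antennapedia and bithorax complexes. Their enhancers are spread over long introns and intergenic stretches, among them the bxd and iab regions of the bithorax complex, and their on or off state is held by Trithorax and Polycomb group proteins. Usf is a basic helix-loop-helix leucine zipper factor, and its vertebrate relatives bind the E-box CACGTG.

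Usf-GFP summits were spread along the Hox domains, and those of the IDR set lay farther from start sites than on the rest of the arm. Over all 4 lists, the windows held 15 IDR summits, 125 pooled summits, 167 summits of replicate 3 and 179 of replicate 4. Of the 15 IDR summits, 11 (73.3%, exact 95% interval 44.9 to 92.2%) lay more than 1 kb from any annotated transcription start site (TSS), against 212 of 643 (33.0%, 29.3 to 36.8%) on the rest of 3R. The median distance from an IDR summit to the nearest TSS was 2038 bp in the Hox windows and 331 bp on the rest of 3R. In the map of pooled summits, the circled IDR summits stand in the body of Antp, at the left edge of the abd-A window and in and beside Abd-B, while the bodies of pb, Dfd, Scr, Ubx and abd-A hold none.

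**Figure D1:**
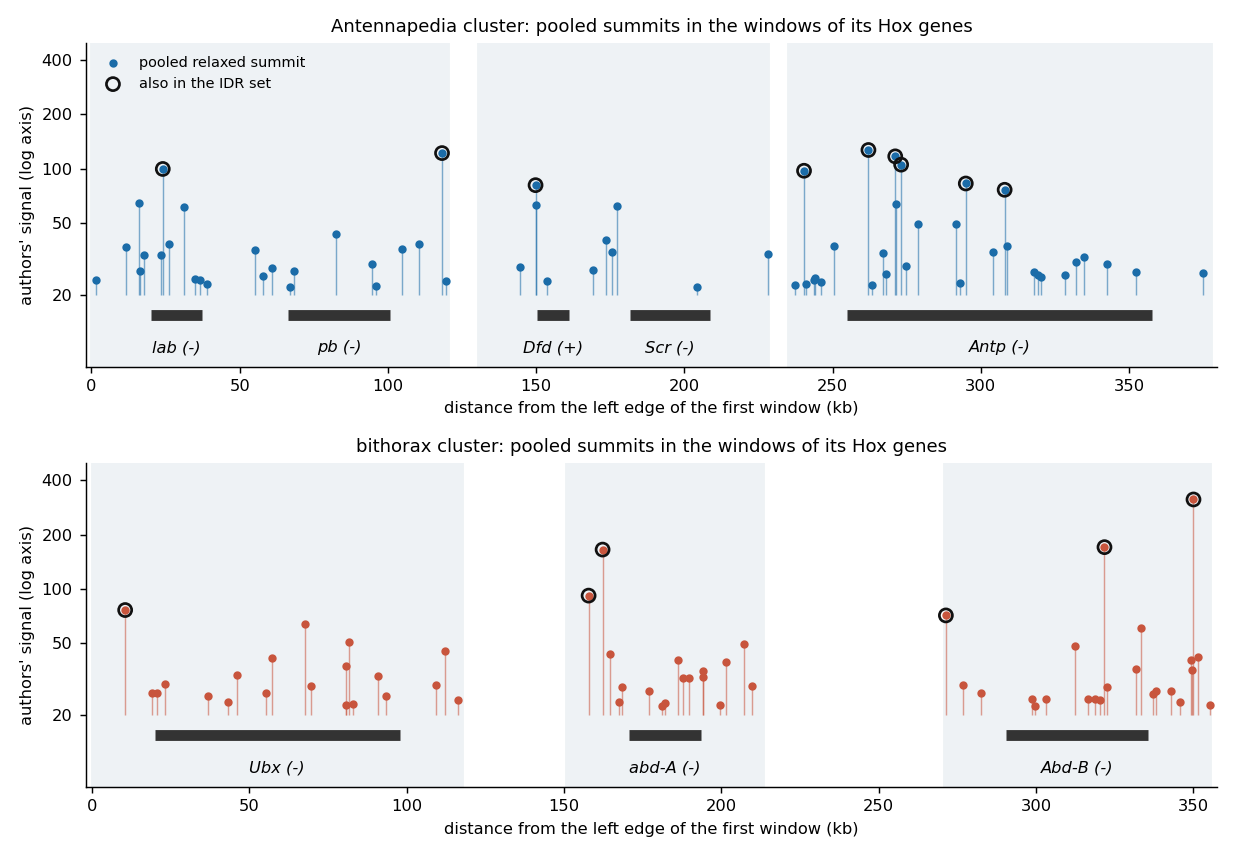
Signal (authors' value, log axis) of each pooled summit against distance in kb, for the Antennapedia cluster (top) and the bithorax cluster (bottom). Grey bands are the windows, dark bars the genes with their strand, and circles mark the 15 summits of the IDR set, whose signals run from 71.3 to 313.5.

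Counted over all positions, the density of summits in the Hox windows was close to that of the arm. The IDR set gave 2.39 summits per 100 kb in the Hox windows and 2.04 on the rest of 3R, a ratio of 1.17 (exact 95% interval 0.651 to 1.94). The pooled list gave 19.9 and 16.4 per 100 kb, a ratio of 1.21 (1.01 to 1.45), and the ratio was 1.20 (1.02 to 1.40) in replicate 3 and 1.27 (1.09 to 1.47) in replicate 4. The 3 relaxed lists thus lay on the same side, with intervals that begin just above 1. They are not independent, since the pooled list comes from the reads of both replicates. The pooled ratio was 1.09 (0.903 to 1.30) when the first 5 Mb of 3R, which hold its centromere-proximal sequence, were left out of the comparison. These intervals cover counting error over peaks only, and the genes and peaks of 1 chromosome are not replicates.

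The difference from the arm stood in the sequence away from start sites. Bases within 1 kb of a TSS made up 23.0% of the Hox windows and 23.3% of the rest of 3R, so both had nearly the same room for distal summits. Beyond 1 kb, the IDR set gave 2.28 summits per 100 kb in the Hox windows and 0.879 on the rest of 3R, a ratio of 2.59 (1.27 to 4.73). The same ratio was 1.43 (1.15 to 1.76) in the pooled list, 1.46 (1.22 to 1.74) in replicate 3 and 1.49 (1.25 to 1.76) in replicate 4. Within 1 kb of a TSS it was 0.472 (0.128 to 1.22) in the IDR set, from 4 summits, and 0.857 (0.588 to 1.21) in the pooled list. This split was chosen after the summits had been seen. The IDR ratio beyond 1 kb rests in part on Antp: without the Antp window 5 distal IDR summits remain, and the ratio was 1.61 (0.517 to 3.81). Its interval also included 1 with flanks of 10 kb (2.26, 0.964 to 4.54) and of 50 kb (1.91, 0.937 to 3.48). The pooled ratio without that window was 1.38 (1.07 to 1.77). Against the rest of 3R from 5 Mb on, the ratios were 2.12 (1.04 to 3.88) in the IDR set and 1.25 (1.00 to 1.53) in the pooled list.

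**Figure D2:**
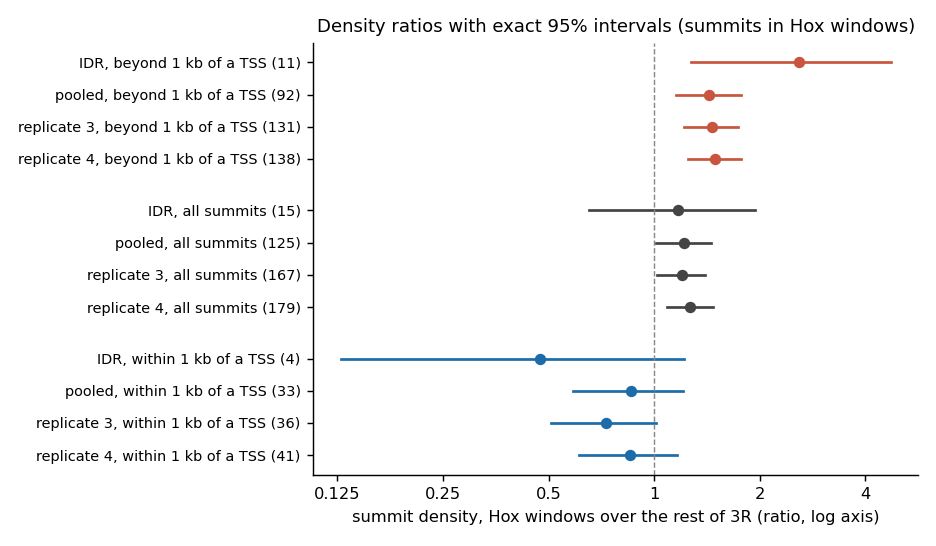
Ratio of summit density in the Hox windows over that on the rest of 3R (log axis) for the 4 lists, with exact 95% intervals; the number of summits in the Hox windows is in brackets. Beyond 1 kb of a TSS all 4 points lie above 1, from 1.43 to 2.59. Within 1 kb all 4 lie below 1, from 0.472 to 0.857. The pooled list and the IDR set draw on both replicates, so the 4 lists are not independent.

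Long genes in general have much sequence away from start sites. The bodies of the 6 Hox genes at least as long as abd-A, with 273.1 kb beyond 1 kb of a TSS, were therefore set against the bodies of other coding genes of that length on 3R. The Hox bodies held 2.20 IDR summits per 100 kb of such sequence and the other long genes 0.831, from 6 and 94 summits, a ratio of 2.64 (0.947 to 5.97). Of these 6 Hox summits, 5 lay in Antp and 1 in Abd-B, and the bodies of pb, Scr, Ubx and abd-A held none. The pooled ratio was 1.60 (1.21 to 2.10). It was 1.66 (1.31 to 2.09) in replicate 3 and 1.48 (1.16 to 1.87) in replicate 4. With other genes from 5 Mb on, the ratio was 2.0 (0.714 to 4.52) in the IDR set, 1.30 (0.976 to 1.70) in the pooled list, 1.35 (1.06 to 1.69) in replicate 3 and 1.23 (0.966 to 1.55) in replicate 4, so that only the interval of replicate 3 left out 1.

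By feature, 8 of the 15 IDR summits lay in introns (53.3%, 26.6 to 78.7%), against 284 of 643 (44.2%, 40.3 to 48.1%) on the rest of 3R. Another 5 were intergenic, 1 lay in a non-coding exon, 1 in a 5′ UTR and none in a coding exon. In the pooled list, 73 of 125 Hox summits (58.4%, 49.2 to 67.1%) were intronic, against 45.1% on the rest of 3R, and 8 (6.40%, 2.80 to 12.2%) lay in coding exons, against 14.3%. The make-up of the sequence moved with these shares: introns held 55.7% of the bases of the Hox windows and 46.0% of the rest of 3R, and coding exons 8.07% and 17.3%. Per 100 kb of intron, the pooled density was 20.9 in the Hox windows and 16.1 on the rest of 3R, a ratio of 1.30 (1.01 to 1.64), and per 100 kb of coding exon the ratio was 1.16 (0.501 to 2.31).

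**Figure D3:**
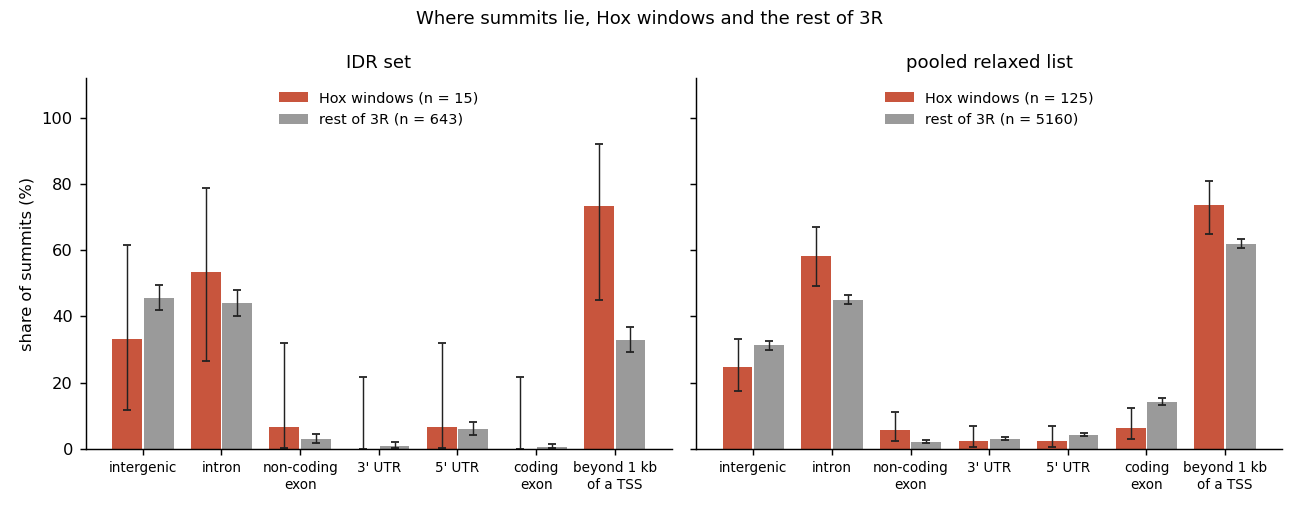
Share of summits (%) by feature and beyond 1 kb of a TSS, in the Hox windows (red) and on the rest of 3R (grey), for the IDR set (left) and the pooled list (right), with exact 95% intervals. The last pair in each panel shows 73.3% against 33.0% in the IDR set and 73.6% against 62.1% in the pooled list.

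Among the 8 Hox genes only Dfd had an IDR summit at a start site of its own, that is, at most 1 kb away, beside 16.2% of coding genes on 3R and 15.3% over the genome. With the pooled list 5 of 8 Hox genes (lab, Dfd, Antp, abd-A and Abd-B) had one, against 49.6% of coding genes on 3R and 48.2% over the genome, so both counts lay near the background. An IDR summit in the window was found for 7 of 8 members, all but Scr, beside 66.3% of 3R coding genes, and a pooled summit for all 8, beside 99.9%. Longer genes have longer windows. Of the 211 other 3R coding genes at least as long as abd-A, 29.4% had no IDR summit in theirs. The gene body held an IDR summit in 3 of 8 members (lab, Antp and Abd-B), beside 7.22% of 3R coding genes, most of which are far shorter. Among coding genes at least as long as abd-A it did so in 35.9%, and among the 6 Hox genes of 20 kb or more in 2.

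The member nearest the head end of the axis is lab, which acts in the head and in the midgut. It occupies chr3R:6661427-6678590 on the minus strand, and its window held 1 IDR, 13 pooled, 12 replicate 3 and 22 replicate 4 summits. The IDR summit lay in an intron, 2038 bp upstream of the inner TSS of lab and 13098 bp downstream of its outer one. Its signal was 99.7 in the pooled list, at rank 1783, with 38.4 in replicate 3, at rank 2900, and 60.1 in replicate 4, at rank 1221. The other pooled summits of the window ran from 22.9 to 64.4, the highest of them 110 bp upstream of the neighbour CG1307. Start-site summits at lab were weak: the pooled one lay 392 bp downstream of the outer TSS with a signal of 24.3, and the closest of replicate 4 lay 347 and 373 bp downstream of the inner and the outer TSS with 17.6 and 16.2, while replicate 3 had none within 1 kb.

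The window of pb, needed for the mouthparts, held 1 IDR, 12 pooled, 11 replicate 3 and 21 replicate 4 summits, and none of the IDR summits fell in pb itself (chr3R:6707800-6742063, minus strand). The IDR summit lay 211 bp upstream of bcd, the maternal gene that patterns the anterior of the embryo, with a signal of 122.1 in the pooled list, 65.8 in replicate 3 and 51.6 in replicate 4. From the lab summit to this one, 94.2 kb held no IDR summit, a stretch with pb, zen, zen2 and the Ccp84 cuticle genes. Of the 657 gaps between neighbouring IDR summits on 3R, 96 (14.6%) were at least as long. The nearest IDR summit outside any window lay 1054 bp beyond the edge of the pb window, 287 bp upstream of Ama, an immunoglobulin-domain gene, and was stronger than all but 1 of those inside: 277.5 in the pooled list (rank 301), 138.7 in replicate 3 and 139.0 in replicate 4. The nearest pooled summit to the TSS of pb lay 4176 bp away. Single replicates had summits of low rank at 734 bp (19.3 in replicate 3) and at 38 bp (11.3 in replicate 4).

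Dfd, which specifies the mandibular and maxillary segments, was the one member with an IDR summit at its start site. The gene occupies chr3R:6791836-6802428 on the plus strand, and the summit lay 612 bp upstream of its TSS with a pooled signal of 81.1 (rank 2346). The 2 replicates placed their summits apart here. Replicate 4 had a signal of 33.4 (rank 2887) at 590 bp upstream, while the closest summit of replicate 3 lay 376 bp upstream with 61.8 (rank 1523), more than 100 bp from the IDR summit. The pooled list held a second summit at 404 bp upstream with 63.2 (rank 3226), which matched replicate 3 but not replicate 4. Both pooled summits thus stood within 1 kb of the TSS, and each was matched in a single replicate. The body of Dfd held 1 pooled summit, of signal 23.8.

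Scr, which acts in the labial and the first thoracic segment and sets the sex combs, had the fewest summits in the IDR and pooled lists, though not in those of single replicates. Its window held no IDR summit, 6 pooled, 16 replicate 3 and 14 replicate 4 summits, and its body (chr3R:6823120-6849981, minus strand) 1 pooled summit of signal 22.1, unmatched in either replicate. A stretch of 26.8 kb over Scr held no pooled summit, the longest in the windows of either cluster. Of the 5284 gaps between neighbouring pooled summits on 3R, 131 (2.48%) were at least as long, and their mean was 6.04 kb. Of its 6 pooled summits, 4 lie in the overlap with the Dfd window, the strongest at 62.5 (33.0 in replicate 3 and 23.8 in replicate 4). The replicate lists placed Scr higher than the pooled list did: by summits per kb of window it stood at the 7.76th percentile of the other 3413 coding genes of 3R in the pooled list, at the 37.9th in replicate 3 and at the 28.2nd in replicate 4.

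Antp, which gives the second thoracic segment its identity, held the largest share. The gene spans 103.0 kb (chr3R:6896253-6999228, minus strand), and its window had 6 IDR, 31 pooled, 43 replicate 3 and 38 replicate 4 summits, of which 5, 23, 35 and 28 lay in the gene body. The strongest IDR summit, with 127.0 in the pooled list, 65.4 in replicate 3 and 59.6 in replicate 4, lay in an exon of the non-coding gene lncRNA:CR43252 inside Antp. The next, with 117.1, 81.5 and 35.9 in the same lists, lay 7866 bp from the nearest TSS, in an Antp intron. The other 3 in the body, at 105.4, 82.8 and 76.4 in the pooled list, also lay in introns, 9855, 3503 and 8922 bp from the nearest TSS. The sixth lay in an intron of lncRNA:CR44931, between Antp and ftz, with 97.5. All 6 were matched in both replicates and all 6 lay beyond 1 kb of a TSS. The gene CG46458 overlaps Antp and holds the same 5 summits of the body, so the lists cannot assign them to either. At the inner TSS of Antp, the pooled list had a summit of 49.2, 325 bp upstream, with 15.8 at 347 bp in replicate 3 and 24.7 at 316 bp in replicate 4, and it was not in the IDR set. Among 211 other 3R coding genes at least as long as abd-A, the body of Antp stood at the 87.7th percentile of IDR summits per kb, the 74.4th in the pooled list, the 85.3rd in replicate 3 and the 67.3rd in replicate 4.

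Ubx, which specifies the third thoracic segment with its halteres, had 1 IDR summit in its window, which was not its own. The gene occupies chr3R:16656623-16734426 on the minus strand, and its window held 20 pooled, 32 replicate 3 and 31 replicate 4 summits. Per kb these were 0.170, 0.272 and 0.263, against 0.164, 0.222 and 0.225 on the rest of 3R. The median pooled signal was 29.1 in the window and 29.4 on the rest of 3R. The IDR summit lay 215 bp upstream of CG10324 and within 1 kb of CCT3, a subunit gene of a chaperonin, with 76.4 in the pooled list, 52.1 in replicate 3 and 25.9 in replicate 4. From it to the far end of the window, over 107.2 kb with the whole of Ubx, there was no IDR summit. The next IDR summit lay 40028 bp beyond that edge, so the full gap between summits was longer. Of the 657 full gaps on 3R, 74 (11.3%) were at least as long as the 107.2 kb inside the window. For the full gap over Ubx this share is an upper limit. The body of Ubx held 15 pooled summits, the strongest of them in an intron at 63.6 (rank 3205), with 26.0 in replicate 3 and 34.8 in replicate 4. In lncRNA:bxd, which runs through the regulatory region upstream of Ubx, the strongest pooled summit was 45.5, with 35.1 in replicate 3 and 13.9 in replicate 4. No pooled summit lay within 1 kb of the Ubx TSS, the nearest being 4223 bp downstream.

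The window of abd-A, which acts in the abdomen, held 2 IDR, 17 pooled, 19 replicate 3 and 26 replicate 4 summits. Neither IDR summit lay in abd-A itself (chr3R:16807214-16830049, minus strand). Both were intergenic, between Ubx and abd-A. The stronger had 165.3 in the pooled list (rank 803), 110.4 in replicate 3 at rank 572 and 57.7 in replicate 4 at rank 1316, 1701 bp upstream of lncRNA:CR45750. The other had 91.9 in the pooled list, 45.8 in replicate 3 and 44.2 in replicate 4, with Glut3, a gene of the glucose transporter family, as the nearest coding gene at 6143 bp. Upstream of the outermost TSS of abd-A the pooled list held a summit of 35.3 at 620 bp, matched only in replicate 3 (16.2 at 719 bp). A second pooled summit, of 32.5 at 824 bp, was matched only in replicate 4 (15.3 at 726 bp). The 2 replicate summits matched each other and lay between the 2 pooled ones, so the replicates did not differ in place here. The bithorax sequence between the windows, on both sides of the abd-A window, had a total length of 89.9 kb. It held no IDR summit and 15 pooled summits, the highest at 60.4.

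Abd-B, which acts in the last abdominal segments, had the strongest summit inside any Hox gene. Its window held 3 IDR, 23 pooled, 24 replicate 3 and 23 replicate 4 summits, and its body (chr3R:16927212-16972236, minus strand) 1, 11, 15 and 11. The intronic IDR summit had 170.5 in the pooled list (rank 760), 93.8 in replicate 3 (rank 764) and 74.1 in replicate 4 (rank 871), and lay 1937 bp downstream of an inner TSS of Abd-B. The strongest summit of all windows, 313.5 in the pooled list (rank 235), 177.7 in replicate 3 and 139.7 in replicate 4, was in the 5′ UTR of the neighbour CG18622, 225 bp from its TSS. The third lay in an intron of lncRNA:iab8, a transcript through the iab regions, at 71.3 in the pooled list (rank 2766 of 2767), 45.5 in replicate 3 and 27.5 in replicate 4, with MSAmiP as the nearest coding gene. A pooled summit of 36.1, 165 bp downstream of an Abd-B TSS, had 26.7 in replicate 4 and no match in replicate 3.

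**Figure D4:**
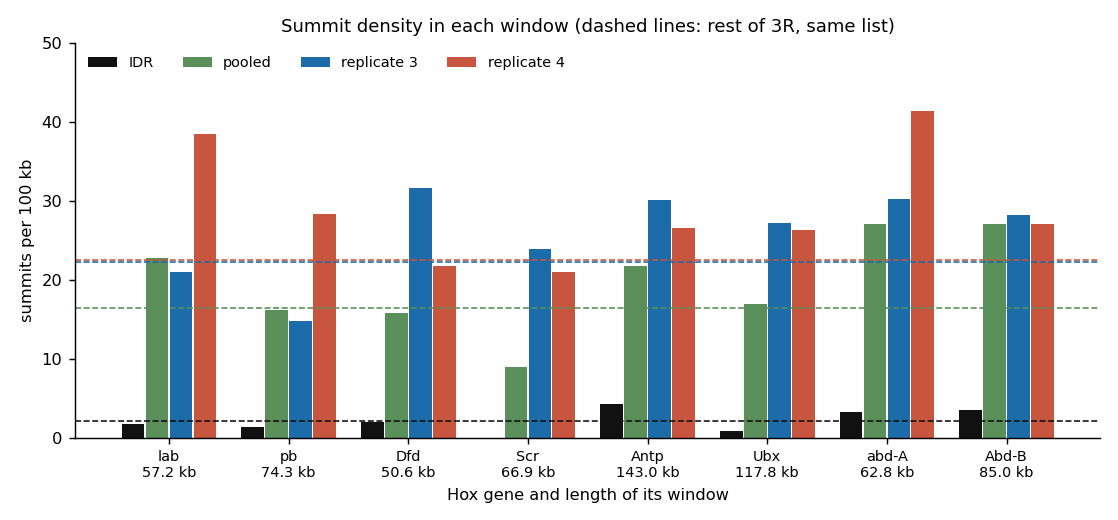
Summits per 100 kb in the window of each Hox gene, from head to tail, in the 4 lists, with the rest of 3R as dashed lines (2.04 in the IDR set, 16.4 in the pooled list). Scr has no IDR summit and the lowest pooled bar, and Antp the highest IDR bar.

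The replicates ranked the same IDR summits high. Of the 15, 14 were matched within 100 bp in both, beside 604 of 643 (93.9%) on the rest of 3R, and the exception was Dfd; since the IDR set was chosen for recurrence, this is a description. The matched summits ranked from 219 to 2900 in replicate 3 and from 251 to 5093 in replicate 4, with signals from 38.4 to 177.7 and from 23.5 to 139.7. Their signals were not high for the arm: the median was 99.7 over the 15 Hox summits and 114.1 over the rest of 3R, and 9 of the 15 Hox summits fell below the median of the rest. Over the pooled list the medians were 29.5 and 29.4, the share of pooled summits in the IDR set 12% (6.87 to 19.0%) and 12.5% (11.6 to 13.4%), and the share matched in both replicates 32.0% (23.9 to 40.9%) and 32.5% (31.2 to 33.8%), each in the Hox windows and on the rest of 3R. Most relaxed summits, in the Hox windows as on the arm, thus lacked a partner in the other replicate.

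**Figure D5:**
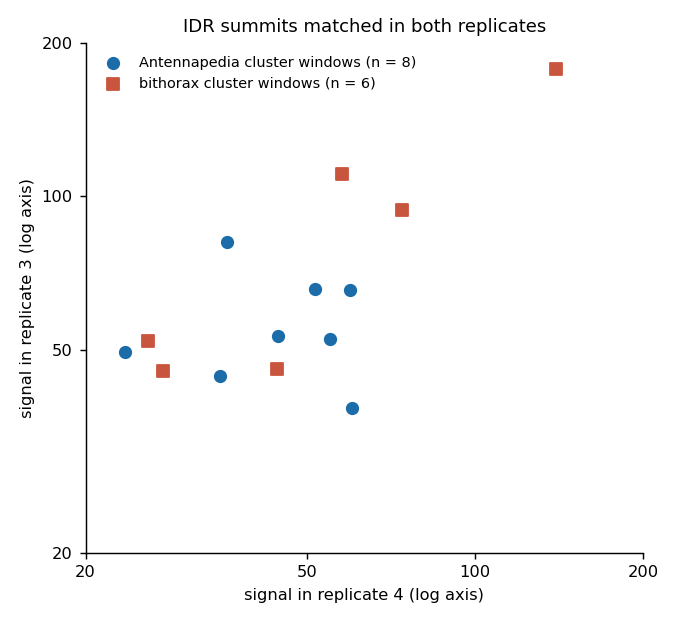
Signal in replicate 3 against signal in replicate 4 (authors' values, log axes) for the 14 IDR summits of the Hox windows matched in both, by cluster. The summit at the upper right is that of CG18622, with 177.7 and 139.7.

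Between the clusters, no list gave a density ratio whose interval left out 1. The Antennapedia windows held 2.49 IDR summits per 100 kb and the bithorax windows 2.26, from 9 and 6 summits, a ratio of 1.10 (0.350 to 3.76). This ratio changed with the processing, to 4.56 (0.553 to 209.5) for gene bodies only, 0.490 (0.0409 to 4.27) with the 1383 strongest IDR peaks, and 0.857 and 0.979 with lists of equal size from replicate 4 alone and from replicate 3 alone. In the pooled list the values were 18.0 and 22.6 per 100 kb, a ratio of 0.796 (0.551 to 1.15). The ratio was 0.901 (0.657 to 1.24) in replicate 3 and 0.909 (0.670 to 1.24) in replicate 4. With these numbers a difference of the size of the pooled ratio was not detectable. Set against the rest of 3R in the pooled list, the Antennapedia windows had a ratio of 1.10 (0.844 to 1.40) and the bithorax windows 1.38 (1.05 to 1.77), and these intervals overlap.

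The sequences at 5 summits are shown to let the letters be read beside the values: the intronic summit of lab, the upstream one of Dfd and the intronic Antp summit of signal 76.4, and below them the 2 strongest distal summits of the bithorax windows. Each is 61 bases of the plus strand of the RefSeq Release 6 sequence (dm6) centred on the summit. Capitals mark the hexamer ACAGTG, the hexamer CAGTGC or the hexamer CAGTGT, searched on both strands, which overlap one another. They were taken up because earlier counts over these IDR peaks had led with them, so their presence is no independent result. The lab, Dfd and Antp summits shown are the only IDR summits of the Hox windows with a hexamer in these 61 bases. The lines shown therefore do not give its frequency.
lab intron, chr3R:6665462-6665522: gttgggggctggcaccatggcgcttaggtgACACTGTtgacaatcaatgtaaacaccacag
Dfd upstream, chr3R:6791194-6791254: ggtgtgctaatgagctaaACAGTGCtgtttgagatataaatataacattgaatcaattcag
Antp intron, chr3R:6949418-6949478: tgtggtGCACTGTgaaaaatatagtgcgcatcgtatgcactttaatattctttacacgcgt
between Ubx and abd-A, chr3R:16798869-16798929: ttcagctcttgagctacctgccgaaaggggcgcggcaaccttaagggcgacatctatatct
Abd-B intron, chr3R:16958314-16958374: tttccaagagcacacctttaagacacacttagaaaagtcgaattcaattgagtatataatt

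In 101 bp centred on the summit, 4 of 15 IDR summits of the Hox windows held at least 1 of these hexamers (26.7%, 7.79 to 55.1%), against 105 of 643 (16.3%, 13.6 to 19.4%) on the rest of 3R. Of all windows of that length laid end to end, 9.89% in the Hox domains and 10.4% on the rest of 3R held one. In the pooled list the shares were 14.4% and 15.4%.

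The E-box CACGTG, a palindrome and so the same on both strands, was in none of the 15 IDR summits within 100 bp (exact interval 0 to 21.8%; the limit of 3 counts that a count of 0 allows is 20%), against 14 of 643 (2.18%, 1.20 to 3.63%) on the rest of 3R. Of the pooled Hox summits 5 of 125 held it (4.00%, 1.31 to 9.09%), against 154 of 5160 (2.98%, 2.54 to 3.49%), and of all windows of the same length 2.24% in the Hox domains and 2.51% on the rest of 3R. The counts were too small to show a difference. Of the 5, 1 each fell in a coding exon of pb, the overlap of the Dfd and Scr windows, an Antp intron, a Ubx intron and a 5′ UTR of Abd-B. The 3 outside exons are shown with the E-box in capitals, from the same sequence and strand. Their pooled signals were 62.5 (rank 3267) between Dfd and Scr, 32.2 (rank 8841) in Antp and 22.6 (rank 20324) in Ubx, and the first and second were matched in both replicates. These lines surround the E-box, not the summit. Between Dfd and Scr the E-box began at 6818701 and the summit lay at 6818801, so it stood at the edge of the 100 bp searched.
between Dfd and Scr, chr3R:6818686-6818721: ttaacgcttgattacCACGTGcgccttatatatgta
Antp intron, chr3R:6976348-6976383: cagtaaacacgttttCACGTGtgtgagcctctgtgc
Ubx intron, chr3R:16717502-16717537: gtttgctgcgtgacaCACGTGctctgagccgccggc

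The motif GAGAG, which GAGA factor (the product of the Trithorax group gene Trl) binds, was found on either strand within 100 bp of 40 of 125 pooled Hox summits (32.0%, 23.9 to 40.9%), against 1109 of 5160 (21.5%, 20.4 to 22.6%) on the rest of 3R. Of all windows of that length it was in 24.4% in the Hox domains and 21.3% on the rest of 3R. In the IDR set it was in 5 of 15 Hox summits (33.3%, 11.8 to 61.6%), against 22.7% (19.5 to 26.1%). By cluster, the pooled share was 29.2% (18.6 to 41.8%) in the Antennapedia and 35.0% (23.1 to 48.4%) in the bithorax windows. The homeodomain core TAATTA was in 14.4% of the pooled Hox summits, against 14.1% on the rest of 3R, and in 2 of the 15 IDR summits (13.3%, 1.66 to 40.5%), at Antp and Abd-B, against 135 of 643 on the rest of 3R (exact interval 17.9 to 24.4%). The median GC content in 101 bp was 32.7% at IDR summits and 42.6% at pooled summits, in the Hox windows and on the rest of 3R alike. A motif match describes the letters in the window and does not show which protein lay there.

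Relative to other coding genes of 3R, each with 20 kb to either side, the pooled density of the members ran from the 7.76th percentile (Scr) to the 80.8th (abd-A and Abd-B). In the IDR set it ran from the 16.9th (Scr) to the 64.0th (Antp). The value of Scr is the middle of a tie: like Scr, 33.7% of the other genes had no IDR summit in the window, so no gene stood below it. Replicates placed some members apart: lab stood at the 26.7th percentile in replicate 3 and at the 87.4th in replicate 4, and pb at the 10.0th and the 57.5th. Dfd stood at the 69.8th in replicate 3 and at the 31.8th in replicate 4. The order of single members thus differed between the libraries.

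Among the 246 coding genes of 3R of at least 20 kb, those nearest to Antp by summits per kb of gene body in the 4 lists (Euclidean distance between percentile ranks) were cno at 6.22, which encodes the junction protein Canoe, Bicra at 13.2, CG6051 at 13.2, stumps at 13.4, needed for fibroblast growth factor signalling, and CG46458 at 13.9, which shares the Antp sequence. Their bodies held from 1 to 5 IDR summits.

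Other clusters of developmental genes, each gene with 20 kb to either side, did not all have the Hox density. The Enhancer of split windows, with Notch target genes, held 12 IDR summits in 83.4 kb, or 14.4 per 100 kb, so that the Hox density was 0.166 times theirs (0.0726 to 0.389) and 0.475 times theirs in the pooled list (0.324 to 0.712). Over the windows of the NK homeobox genes the Hox ratio was 0.979 (0.338 to 3.44) in the IDR set and 1.17 (0.796 to 1.75) in the pooled list, and over those of the Iroquois genes 3.29 (0.507 to 139) and 1.02 (0.666 to 1.60).

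Genes that work with or upon the Hox clusters were counted by the same start-site rule in the IDR set, beside 15.3% of all coding genes. Of the other genes of the Antennapedia complex, ftz, zen, zen2, bcd and Ama, 2 of 5 had one, bcd and Ama. None of the 3 cofactors exd, hth and tsh had one, and none of the 8 gap and pair-rule regulators hb, Kr, kni, gt, eve, ftz, opa and run. Of the 12 Trithorax group genes 5 did: brm (pooled signal 584.1) and mor (100.4), which encode subunits of the Brahma remodelling complex, the GAGA factor gene Trl (229.7), lola (258.2) and fs(1)h (149.7). Of the 17 matched Polycomb group genes 6 did: ph-p (1295) and ph-d (523.6), neighbouring copies of polyhomeotic, E(z) (366.3), the histone methyltransferase, its partner Su(z)12 (81.6), and Sfmbt (159.8) and pho (75.5) of the Pho repressive complex. Of the 10 boundary factor genes 3 did, Cp190 (400.2), BEAF-32 (103.3) and su(Hw) (97.8). These lists were drawn up with results of the same peaks known, and the counts are descriptions.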

How the data were processed

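Chromatin immunoprecipitation with sequencing was done on 2 embryo collections. Per the labels, the deposited peak lists include dm6 coordinates, and per the deposited sample notes 1 control alignment served both replicates and the relaxed lists were the IDR input. The signal of each peak was made by the authors. Its scaling, the aligner, the caller with its version, and the IDR cut-off were not given in the sources used here. Signal ranked peaks within a list only. Read depth is unknown.

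Summits on dm6 were joined to Ensembl 115 annotation (FlyBase 6.54) and the RefSeq Release 6 sequence. Transposable elements were dropped. The feature of a summit was taken in the order coding exon, 5′ UTR, 3′ UTR, non-coding exon, intron, intergenic. Each density is summits per length, its ratio has an exact conditional 95% interval, and shares have exact binomial (Clopper-Pearson) 95% intervals. Both cover counting error over peaks only. Summits within 100 bp matched. With 1 group there is no test over samples, and no p-value is given. Density ratios were checked on simulated independent counts of known ratio, which do not mimic clustered peaks. Window and feature counts were checked on positions drawn from known windows and features, and motif counts on random sequences with CACGTG planted. Python 3.11.15, NumPy 2.4.6, pandas 2.3.3 and SciPy 1.17.1 were used.

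Members, gene lists and motifs were chosen with earlier results of these data known. Named were the Hox genes, genes within 1 kb of an IDR summit of a window or else the nearest coding gene, listed genes with an IDR summit at a start site, and the 5 genes most like Antp. Pooled summits named beyond these were chosen after their values were seen. The symbols Pita, Zw5 and fsh were matched through RefSeq synonyms, and calypso was not matched. The dm3 lists were not used here.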

Additional observations from a re-analysis of the deposited data

How the results depend on the processing

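Alternatives changed the flank, the distance to a TSS, the matching distance, the motif window, the list and the replicate. The IDR ratio of all summits, Hox windows over the rest of 3R, fell below 1 with flanks of 10 kb (0.980) or 50 kb (0.912) and with the 1383 strongest IDR peaks (0.841); all its intervals include 1. The pooled ratio kept its direction, but its interval included 1 with flanks of 10 kb (1.22), gene bodies only (1.23) and the rest of 3R from 5 Mb on (1.09). The Antennapedia over bithorax IDR ratio, 1.10, was 4.56 for gene bodies only, 0.490 with the 1383 strongest peaks and 0.857 to 0.979 with a single replicate's 2767 strongest peaks, with intervals that include 1 throughout. Its pooled ratio stayed between 0.796 and 0.909.

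The IDR ratio beyond 1 kb of a TSS, whose alternatives were all added after seeing the data, ran from 1.61 to 3.01. Its interval included 1 with flanks of 10 kb (2.26) and 50 kb (1.91), the 1383 strongest peaks (2.08) and without the Antp window (1.61), and left out 1 in the other 8. The pooled ratio ran from 1.25 to 1.57, with intervals above 1 throughout. Against the rest of 3R from 5 Mb on, the interval began at 1.0006 and so barely left out 1.

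The count of Hox genes with an IDR summit at a start site (1 at the 1 kb limit) was 0 within 500 bp, 2 within 2 kb and 0 with the 1383 strongest peaks, and from 0 to 1 with a single replicate. Within gene bodies only, 0% of IDR summits lay within 1 kb of a TSS and 85.7% in introns, and with the 1383 strongest peaks 20% lay in introns. The matches in both replicates (13 to 14), the count with CACGTG (0) and the share of pooled summits in the IDR set (9.52 to 12%) moved less.

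No paired analysis was possible because the study has 1 group. The small number of IDR summits, and the unknown read depth, limit what the windows can show.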
